A study of Mus musculus with 6 samples.

Results

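Complement is a cascade of blood and tissue proteins that tags particles and cells for removal by phagocytes. It was followed here through 9 genes, chosen by symbol as its components, regulators and receptors and not by a threshold on their values: the C1q chain genes C1qa, C1qb and C1qc, the component genes C3 and C4b, the alternative pathway genes Cfp and Cfb, and the receptor genes C3ar1 and C5ar1. All 9 were among the 49585 genes listed in the data. Of these, 8 passed the filter on low counts that left 11041 genes for testing, and Cfb, with no count in any library, did not.

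The data are bulk RNA-seq counts from microglia, the resident macrophages of the brain, of male mice aged 3 months, in 3 libraries of wild-type mice (WT) and 3 libraries labelled IRF8KO. IRF8 is a transcription factor that macrophages and their relatives make. The cells were taken from each brain without enzymes and sorted straight into TRIzol, and polyadenylated RNA was copied by SMART-Seq v4, a kit for small inputs. The labels give genotype as WT or IRF8KO, and the strain and the allele are not given in the sources used here, nor whether the deletion was in all cells.

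In the classical pathway, C1q binds to antibody or to a surface directly. C1q is built from A, B and C chains, each the product of its own gene, and its bound proteases cut C4 and C2, whose fragments together cleave C3. The alternative pathway needs no antibody: C3 that has settled on a surface is joined by factor B, and properdin, the product of Cfp, holds the resulting enzyme together. The small fragments C3a and C5a act through the receptors C3AR1 and C5AR1, and bound C3 fragments are read by the integrin receptor CR3. Microglia are known as the main source of C1q in the brain, where C1q and C3 mark synapses for removal.

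The targeted gene, Irf8, was counted in every library, at 793, 849 and 1400 CPM in WT replicates 1 to 3 and 741, 648 and 848 CPM in IRF8KO replicates 1 to 3. CPM is the standard depth-scaled count, here with library sizes adjusted by the trimmed mean of M values (TMM). The groups overlapped, with a log2 fold change (IRF8KO minus WT) of −0.44 (SE 0.33, edgeR adjusted p = 0.368). Adjusted p-values are from edgeR's quasi-likelihood F test with Benjamini-Hochberg adjustment over all tested genes, and a gene is called when its value is under 0.05. They measure the spread between these samples, which may be partly technical. A count over a whole gene cannot show a missing exon, so these counts did not check the genotype, and IRF8KO below stands for the libraries with that label. Depth was 3658917 to 11098363 gene counts per library. Apoe took 25.5% to 33.7% of the counts in IRF8KO libraries and at most 0.324% in WT libraries. WT replicate 3 stood apart from the other WT libraries: the chi-square statistic per degree of freedom between their counts was 65.3 and 83.6, against 8.57 between WT replicates 1 and 2. Summed CPM of 10 immediate early genes was 5766 and 10987 in WT replicates 1 and 2 and 838 in WT replicate 3, near the 783 to 1030 of the IRF8KO libraries. All 13 microglial markers were tested, of which 1 was called higher and 6 lower. Their summed CPM was 46871 to 76107 in WT and 36673 to 51610 in IRF8KO, and 1 defining marker, Sall1, had no count in any IRF8KO library.

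The results turned on C1qb and C1qc, which moved together and apart from C1qa, and on C3 and Cfp, which rose. RefSeq windows of assembly GRCm38.p6 were matched for 6 of the 9 genes (C1qb, C1qc, C3, Cfp, C3ar1 and C5ar1). The 250 bases upstream of the start of C1qb, C1qc, C3 and Cfp, all on the minus strand, are shown 5′ to 3′, at chr4:136886201-136886450, chr4:136892915-136893164, chr17:57228137-57228386 and chrX:20931556-20931805. Capitals mark a match to 1 of 6 motifs searched on both strands, and the stretch shown for Cfp has none. RefSeq and GENCODE place the start of C1qc differently: 151 of the 250 bases shown for it lie inside the gene as GENCODE bounds it, against 0 for C1qb, C3 and Cfp. The same holds for 202 bases upstream of the RefSeq start of C5ar1 and 4 of C3ar1, whose windows were searched but are not shown.
C1qb: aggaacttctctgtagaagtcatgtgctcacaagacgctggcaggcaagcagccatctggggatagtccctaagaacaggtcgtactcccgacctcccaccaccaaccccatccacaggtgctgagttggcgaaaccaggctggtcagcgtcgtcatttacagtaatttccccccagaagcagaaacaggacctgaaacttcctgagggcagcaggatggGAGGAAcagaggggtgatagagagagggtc
C1qc: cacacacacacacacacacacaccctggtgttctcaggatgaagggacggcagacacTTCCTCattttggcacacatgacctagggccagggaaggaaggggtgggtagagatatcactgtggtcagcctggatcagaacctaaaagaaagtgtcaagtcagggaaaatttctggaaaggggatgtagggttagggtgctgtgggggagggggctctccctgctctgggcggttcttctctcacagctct
C3: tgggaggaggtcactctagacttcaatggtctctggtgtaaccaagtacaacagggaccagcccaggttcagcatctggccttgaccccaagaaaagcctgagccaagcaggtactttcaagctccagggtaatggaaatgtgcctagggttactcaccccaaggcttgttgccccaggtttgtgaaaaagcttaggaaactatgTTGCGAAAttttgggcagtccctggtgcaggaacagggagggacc
Cfp: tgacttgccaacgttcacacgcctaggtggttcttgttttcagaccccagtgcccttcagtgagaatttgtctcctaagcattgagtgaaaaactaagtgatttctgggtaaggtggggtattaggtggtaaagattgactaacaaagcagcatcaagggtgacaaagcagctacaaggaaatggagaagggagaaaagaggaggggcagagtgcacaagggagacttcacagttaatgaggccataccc

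The motifs were the composite element of PU.1 and an IRF (GGAA and GAAA with 2 bases of any kind between them), the interferon response element (GAAA and GAAA, spaced likewise), a PU.1 core (GAGGAA), a C/EBP site (TTGCNNAA), an AP-1 site (TGANTCA) and the STAT site named GAS (TTCNNNGAA). The windows searched held 300 bases, the last 50 of them after the start. The first 2 motifs can overlap each other and the PU.1 core, and none of the 6 windows held either of them. They were found in 2.72% and 3.44% of all 32851 windows of the same length. The PU.1 core, found in 28.3% of all windows, was in the windows of C1qb (30 bases before the start), C1qc (193 bases before its RefSeq start, on the other strand) and Cfp (after the start, so not shown). The C/EBP letters, in 10.8% of all windows, were 45 bases before the start of C3, as TTGCGAAA. The AP-1 letters, in 7.81%, were 22 bases before the start of C3ar1, and the GAS letters, in 8.3%, were in none of the 6. A match is a run of letters and not a measured binding site.

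C1q transcripts were among the most abundant of all, and in IRF8KO the A chain transcript took a larger part of them. C1qb lost ground to C1qa by 2.03-fold and C1qc by 1.91-fold in IRF8KO, whereas the ratio of C1qb to C1qc differed by less than the spread between libraries. The 3 genes lie side by side on the minus strand of chromosome 4 (GRCm38): C1qb (ENSMUSG00000036905) at 136880129 to 136886187, C1qc (ENSMUSG00000036896) at 136889804 to 136893065 and C1qa (ENSMUSG00000036887) at 136895917 to 136898803. None shares exon sequence with another annotated gene or any 50-base stretch of its transcripts with another gene's. The protein-coding genes flanking the cluster, Ephb2 and Epha8, had at most 4 counts in any library. By counts per kb of exon, C1qb ranked 2 of the 11041 tested genes in every WT library and 3 or 4 in the IRF8KO libraries. C1qa and C1qc ranked 3 to 8 in all 6.

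C1qa, which encodes the A chain, stood at 3089.7, 3718 and 8013 CPM in WT replicates 1 to 3 and at 7484, 5248 and 7912 CPM in IRF8KO replicates 1 to 3. WT replicate 3 was the highest of the 6 and WT replicates 1 and 2 the lowest, so the groups overlapped. The log2 fold change was 0.48 (SE 0.43) and not called (edgeR adjusted p = 0.469). C1qb, for the B chain, stood at 12065, 12376 and 28842 CPM in WT and 13708, 9057 and 13978 CPM in IRF8KO in the same order. Again WT replicate 3 lay far above the rest, and the other 5 libraries spanned 9057 to 13978 CPM. Its log2 fold change was −0.54 (SE 0.45; adjusted p = 0.441 in the same edgeR test). C1qc, for the C chain, was at 7779 and 8830 CPM in WT replicates 1 and 2, at 16033 CPM in WT replicate 3, and at 9174, 6421 and 9074 CPM in IRF8KO. Its log2 fold change was −0.40 (SE 0.41; adjusted p = 0.523 in edgeR), again with overlapping groups. Without WT replicate 3, C1qa was called higher at 1.04 (SE 0.22, edgeR adjusted p = 0.00586), whereas C1qb and C1qc came to 0.030 and 0.0135. With an offset for GC content it was C1qb and C1qc that were called, both lower, at −0.74 and −0.64 (edgeR adjusted p = 0.0076 and 0.0058). The call of C1qa thus depended on WT replicate 3, and those of C1qb and C1qc on the GC offset and, as given below, on the scaling. The GC content of the longest transcripts was 59.5% for C1qa, 57.4% for C1qb and 57.5% for C1qc.

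**Figure D1:**
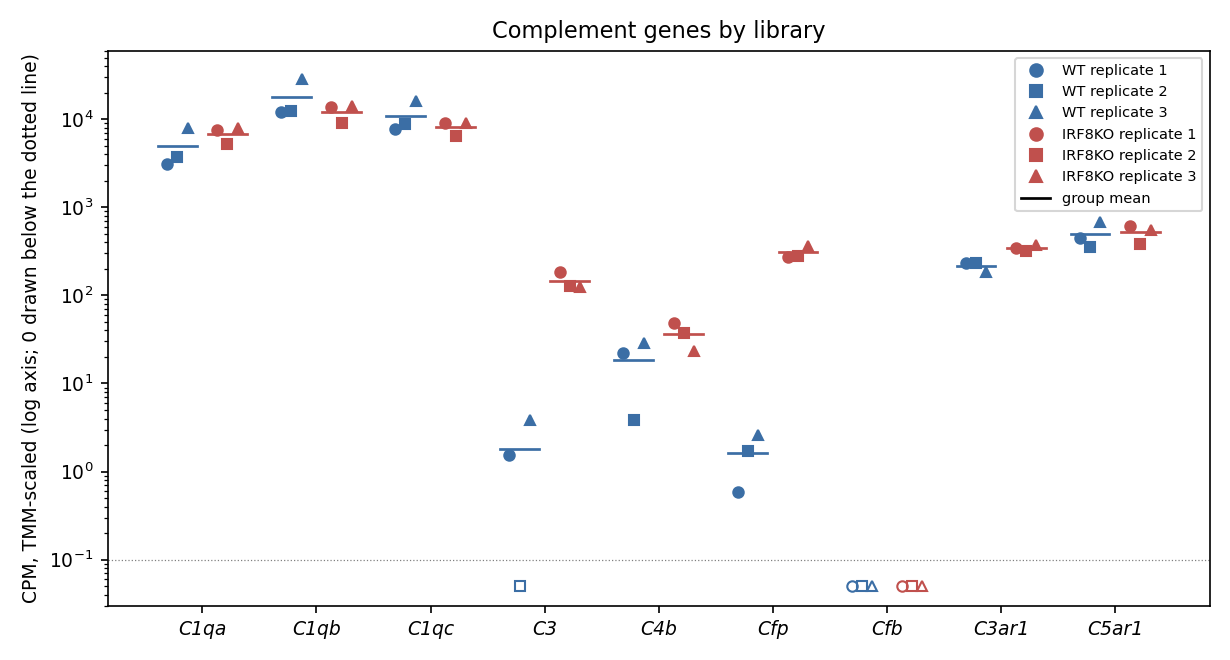
TMM-scaled CPM of the 9 complement genes on a log axis, 1 point per library, with WT in blue, IRF8KO in red and a line at each group's mean. C3 and Cfp are the genes whose IRF8KO points all lie above 100 CPM while all WT points lie below 5 CPM, and open symbols below the dotted line are libraries with no count.

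A ratio between genes of 1 library does not move with that library's scaling, and here it was far steadier than either level. Per kb of exon, C1qb stood at 3.73, 3.18 and 3.44 times C1qa in WT replicates 1 to 3 and at 1.75, 1.65 and 1.69 times C1qa in IRF8KO replicates 1 to 3. Every IRF8KO library was below every WT library, WT replicate 3 included. The mean log2 ratio was 1.78 ± 0.12 in WT and 0.76 ± 0.04 in IRF8KO (SD, n = 3 each), a difference of −1.02 (SE 0.07). C1qc stood at 1.36, 1.28 and 1.08 times C1qa in WT and at 0.660, 0.659 and 0.618 times C1qa in IRF8KO. These did not overlap either, and C1qc crossed from above C1qa to below it. The mean log2 ratio was 0.30 ± 0.17 in WT and −0.63 ± 0.05 in IRF8KO (SD, n = 3 each), a difference of −0.93 (SE 0.10). The exact permutation test over 6 libraries gave p = 0.1 for each, 2-sided, the smallest p that 3 against 3 can reach, so no ratio here could pass 0.05. Adjusted over the 7 ratios of the design that could be formed (Benjamini-Hochberg), each exact p was 0.175. The ratio of C1qb to C1qc, added after the data were seen and outside those 7, was 2.75, 2.49 and 3.19 in WT and 2.65, 2.5 and 2.73 in IRF8KO, a log2 difference of −0.09 (SE 0.11; exact permutation p = 0.5). Leaving out any 1 library kept the difference of C1qb to C1qa between −1.08 and −0.96 and that of C1qc to C1qa between −1.03 and −0.86.

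**Figure D2:**
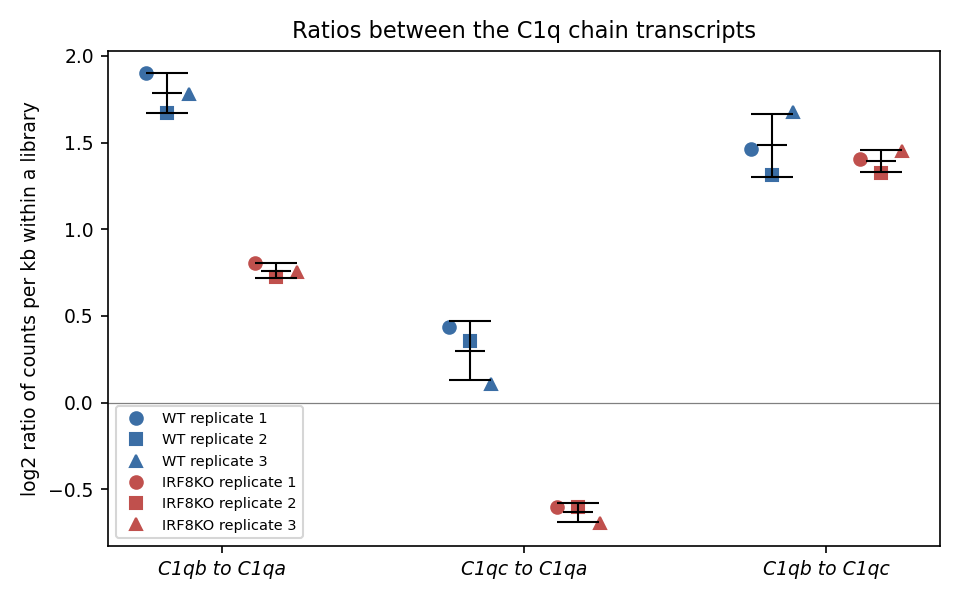
Log2 ratio of counts per kb of exon between pairs of C1q chain transcripts within each library, with the mean and SD of 3 libraries per genotype. C1qb to C1qa fell from 1.78 to 0.76 and C1qc to C1qa from 0.30 to −0.63, while C1qb to C1qc had means of 1.48 and 1.39.

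Together the C1q genes took 3.23%, 3.25% and 4.86% of gene counts in WT replicates 1 to 3 and 2.11%, 2.13% and 2.58% in IRF8KO replicates 1 to 3. The widest of their exact 95% binomial intervals ran from 3.21% to 3.25%, so counting error was small beside the spread between libraries, which the intervals do not cover. On this scale all IRF8KO libraries were below all WT libraries. With Apoe taken out of the total, the shares were 3.24%, 3.25% and 4.87% in WT and 3.18%, 2.85% and 3.58% in IRF8KO, and the groups overlapped. Scaling by library size alone, which leaves Apoe in, gave log2 fold changes of −0.97 and −0.86 for C1qb and C1qc, both called (edgeR adjusted p = 0.0165 and 0.00909), and 0.05 for C1qa, not called. It moved the median of all tested genes by −0.50 from the −0.11 it had under TMM.

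The rest of the C1 complex and of the lectin pathway was near the limit of detection. C1ra, one of the C1 proteases, had 2 to 26 counts per library and was not called (log2 fold change −1.46, SE 0.91, edgeR adjusted p = 0.286), and 50.8% of its 50-base stretches are shared with copies such as C1rb. C1s1 and C1s2, the partner proteases, had no count, for which the limit is 3 counts in each library. C2 had at most 2 counts, and 46.9% of its exon length is shared with other genes, so reads there were not assigned. None of the 8 lectin pathway genes passed the filter. Among them Fcnb, which encodes a ficolin made by neutrophils, had 74 counts in IRF8KO replicate 2 and none elsewhere. In that library summed CPM of 8 neutrophil markers was 353, led by S100a8 at 121 CPM and Ngp at 79.1 CPM, against at most 0.801 in the other 5 libraries.

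C4b (ENSMUSG00000073418, chromosome 17, 34728380 to 34743882, minus strand), which encodes complement C4, was low and uneven between libraries. It stood at 22.1, 3.88 and 28.7 CPM in WT replicates 1 to 3 and at 49.0, 37.2 and 23.3 CPM in IRF8KO replicates 1 to 3. WT replicate 2 was lowest and the groups overlapped. The log2 fold change came to 1.01 (SE 0.57, not called, edgeR adjusted p = 0.235), and it moved from 0.51 without WT replicate 2 to 1.58 without WT replicate 3. Its near copy C4a shares 34.6% of the 50-base stretches of C4b and had at most 4 counts, so the C4b counts come from the part of C4b that reads can place. C4b is also made by oligodendrocytes and astrocytes. Summed CPM of 8 oligodendrocyte markers, led by Mbp and Cnp, was 344, 284 and 696 in the WT libraries against 683, 511 and 478 in the IRF8KO libraries, in replicate order. Within each genotype the library with the highest sum had the highest C4b and the one with the lowest sum the lowest C4b. Of these markers 5 were tested, with 0 called higher and 1, Cnp, lower, and none was at 0 in all libraries. Summed CPM of 10 astrocyte markers was 175 to 213 in WT and 121 to 205 in IRF8KO, with Sox9 at 0 in all libraries. Of the 7 astrocyte markers tested, 4 were called higher and 1, Slc1a3, lower. Slc1a3, which led the sum in WT, fell from 151 ± 58.4 to 8.74 ± 6.53 CPM (SD, n = 3, edgeR adjusted p = 5.0e-04). Those called higher were Gfap, Aldh1l1, S100b and Slc1a2, named after their values were seen. Gfap stood at 3.11, 0.424 and 5.5 CPM in the WT libraries against 23.7, 15.0 and 8.22 CPM in the IRF8KO libraries. This was the order of C4b within each genotype, which Aldh1l1, S100b and Slc1a2 did not keep in both genotypes. The astrocyte sum did not keep it either, being lowest in WT replicate 3, where C4b was highest. The part of such cells in the C4b values was not tested.

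C3 and Cfp went from near absence to clear expression, the strongest differences among the 9 genes. In all, 2 of the 8 tested members were called, both higher, where 19.1% of all tested genes were called and 9.64% were called higher and 9.46% lower. Both passed the filter on low counts through the IRF8KO libraries alone. C3 (ENSMUSG00000024164, chromosome 17, 57203970 to 57228136, minus strand), the component on which all pathways meet, had 8, 0 and 28 counts in WT replicates 1 to 3 and 1164, 1431 and 1149 counts in IRF8KO replicates 1 to 3. Scaled, this was 1.55, 0 and 3.85 CPM in WT and 186, 128 and 124 CPM in IRF8KO. Every IRF8KO library was above every WT library by a wide gap. The mean rose from 1.80 ± 1.94 to 146 ± 34.8 CPM (SD, n = 3), 81.2-fold, with a log2 fold change of 6.47 (SE 0.85; edgeR adjusted p = 3.5e-04). The size of the fold rested on the few WT counts: the log2 fold change was 5.70 without WT replicate 2, which had no C3 count, and 8.30 without WT replicate 3, which had the most.

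Cfp (ENSMUSG00000001128, X chromosome, 20925454 to 20931555, minus strand) encodes properdin, the positive regulator of the alternative pathway. It had 3, 24 and 19 counts in WT and 1704, 3165 and 3389 in IRF8KO, or 0.582, 1.70 and 2.61 CPM against 273, 283 and 367 CPM. The groups were again far apart, with IRF8KO libraries close to each other. The mean rose from 1.63 ± 1.02 to 308 ± 51.4 CPM (SD, n = 3), 189-fold, with a log2 fold change of 7.49 (SE 0.47; edgeR adjusted p = 2.0e-06). By counts per kb, Cfp ranked 208 to 316 of the tested genes in IRF8KO libraries, up from 6432 to 9890 in WT libraries, and C3 ranked 1374 to 1812, up from 7748 to 10853. Per kb, Cfp was 4.34, 6.55 and 8.74 times C3 in IRF8KO replicates 1 to 3. Their WT ratio is not given as a level, since WT replicate 2 had no C3 count. Neither C3 nor Cfp overlaps another gene or shares a 50-base stretch with one, and of their coding neighbours Gpr108 and Elk1 were tested and not called (log2 fold changes of −0.18 and 0.61, edgeR adjusted p = 0.734 and 0.538). Syn1, a neuronal gene 4450 bases from Cfp on its other side, had no count in WT and 33, 13 and 4 counts in IRF8KO replicates 1 to 3, too few to be tested, and Tnfsf14, the other neighbour of C3, had 1 count in all.

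Markers of other macrophages moved with C3 and Cfp. Of 10 markers of border-associated macrophages, the macrophages of the meninges and vessels, 8 were tested and all 8 were called higher. Of those, Cd163 and F13a1 had no count in WT, and Ms4a7 and Clec12a had at most 9 and 10 per WT library. They passed the filter through the IRF8KO libraries alone, which partly fixed the tally of 8. Summed CPM of the 10 markers was 608, 656 and 833 in the WT libraries against 4977, 3801 and 4479 in the IRF8KO libraries, led by Stab1 and Pf4. Pf4 was at most 2.61 CPM in WT and 1532 to 2166 CPM in IRF8KO. Lyve1, a defining marker of these cells, had no count in any library, Folr2 had at most 2 (63.1% of its exon length is shared with Gm10602, where reads were not assigned), and Vsig4, the complement receptor of tissue macrophages, had none. In bulk RNA a higher level per cell cannot be told apart from more cells of a type, and the part of such cells in the C3 and Cfp values was not tested. Monocyte markers summed to 6.74 to 27.1 CPM in WT and 9.74 to 54.4 CPM in IRF8KO, with 1 of 2 tested genes, Fn1, called higher. Marker lists of cells outside the macrophage lineage went both ways. Choroid plexus markers, led by Ttr, summed to at most 1.98 CPM in WT and to 14.5 to 41.3 CPM in IRF8KO, with 2 of 2 tested genes called higher and Kcnj13 at 0 in all libraries. Neuron markers summed to 0.636 to 9.35 CPM in WT and 21.3 to 27.9 CPM in IRF8KO, with 2 of 4 tested genes called higher, and 4 of 7 tested astrocyte markers were called higher, though their sum was not, as given for C4b. Of these genes called higher, Fn1, Ttr, Folr1, Rbfox3, Syt1, Gfap, S100b and Slc1a2 also passed the filter through the IRF8KO libraries alone. Lymphocyte markers, led by Ighm and Cd79b, summed to 517 to 857 CPM in WT and 32.9 to 45.0 CPM in IRF8KO, with 1 of 3 tested genes called higher and 2 lower and with Cd3e and Cd8a among those at 0 in all libraries. Endothelial markers, led by Pecam1 and Flt1, summed to 19.8 to 21.7 CPM in WT and 8.49 to 14.4 CPM in IRF8KO, with 0 of 2 tested genes called higher and 1 lower. Their part in the C3 and Cfp values was not tested either. Without IRF8KO replicate 2, the library with neutrophil transcripts, the log2 fold changes of C3 and Cfp were 6.55 and 7.56, against 6.47 and 7.49 with all libraries. The part of neutrophils in the C3 and Cfp values was not tested.

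Cfb (ENSMUSG00000090231, chromosome 17, 34856374 to 34862518, minus strand), which encodes factor B, had no count in any library. Of its exon length, 79.5% is shared with Gm20547, an annotated transcript that runs through C2 and Cfb, and reads on a shared stretch are not assigned to either gene. The remaining 20.5%, or 579 bases, gave no count, which allows up to 3 counts per library, or 0.212 to 0.582 CPM. Cfb transcripts were thus not detectable in this part at this depth, and no statement on the shared part can be made. The ratio of Cfb to C3 could not be formed. Cfd, for factor D, the protease that cuts factor B, had no count in any library either.

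The anaphylatoxin receptors differed in how steady they were. C3ar1 (ENSMUSG00000040552, chromosome 6, 122847138 to 122856161, minus strand), for the receptor of C3a, stood at 232, 234 and 187 CPM in WT replicates 1 to 3 and at 343, 322 and 375 CPM in IRF8KO replicates 1 to 3. All IRF8KO libraries were above all WT libraries, and the groups failed to overlap, in either direction, for 37.9% of all tested genes, with IRF8KO above for 20%. The means were 217 ± 26.4 and 347 ± 26.6 CPM (SD, n = 3), with a log2 fold change of 0.67 (SE 0.27) that missed the threshold (edgeR adjusted p = 0.1). It passed with the DESeq2 Wald test (0.71, adjusted p = 0.0326), with the GC offset (1.17, edgeR adjusted p = 0.0054) and without WT replicate 3 (0.61, edgeR adjusted p = 0.0219), and was 0.14 under library size alone. C5ar1 (ENSMUSG00000049130, chromosome 7, 16246743 to 16259540, minus strand), for the receptor of C5a, stood at 452, 357 and 687 CPM in WT and at 620, 379 and 558 CPM in IRF8KO. The groups overlapped fully, and the log2 fold change was 0.06 (SE 0.34; edgeR adjusted p = 0.927). Per kb, C3ar1 was 0.306, 0.390 and 0.162 times C5ar1 in WT and 0.330, 0.507 and 0.401 times in IRF8KO, so C5ar1 was the more abundant receptor in all 6 libraries. The ratio did not separate the groups (log2 difference 0.60, SE 0.42, exact permutation p = 0.2). C5ar2, the second C5a receptor and a neighbour of C5ar1, was not called (29.7 ± 12.3 and 49.2 ± 6.72 CPM, SD, n = 3, edgeR adjusted p = 0.145), but was without WT replicate 3 (log2 fold change 1.17, edgeR adjusted p = 0.00817). Hc, the gene of C5 itself, had no count in any library.

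The order of the members by mean CPM per kb was C1qb, C1qc, C1qa, C5ar1, C3ar1, C4b, Cfp, C3 and Cfb in WT. In IRF8KO it was C1qb, C1qa, C1qc, C5ar1, Cfp, C3ar1, C3, C4b and Cfb. The WT means of C1qa and C1qc, at 4750 ± 2576 and 5635 ± 2327 CPM per kb (SD, n = 3), lay within the spread between libraries, although within each WT library C1qc was above C1qa, as the ratios above give. The WT means of Cfp and C3, at 0.939 ± 0.586 and 0.350 ± 0.377 CPM per kb, and the IRF8KO means of C5ar1 and Cfp, at 202 ± 48.7 and 177 ± 29.6 CPM per kb, also lay within the spread between libraries. Cfp thus moved past C3ar1, which stood at 80.6 ± 6.18 CPM per kb, and C3, at 28.4 ± 6.76, past C4b, at 6.4 ± 2.26.

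Beyond these genes, a list of 56 complement genes was set up by function, and 22 of them, the members included, passed the filter. Of the 22, 4 were called higher and 3 lower (31.8%, against 19.1% of all tested genes), and the median log2 fold change was 0.14, against −0.11 over all tested genes. The number called higher was 8 without WT replicate 3 and 2 without IRF8KO replicate 1 or without IRF8KO replicate 3. In 18 of the 56, among them Cfd, Hc, Cfi, C6, C7, C9 and Cr2, no library had a count. Inhibitors went both ways. Csmd3, of a family of membrane proteins with complement-control domains, fell from 16.6 ± 10.8 to 0.717 ± 0.228 CPM (edgeR adjusted p = 9.9e-04). Clu, for clusterin, which binds terminal components, rose from 9.81 ± 7.81 to 45.7 ± 12.7 CPM (SD, n = 3, edgeR adjusted p = 0.0166). The call of Clu was lost without IRF8KO replicate 1 (log2 fold change 2.01, edgeR adjusted p = 0.0783) and without IRF8KO replicate 3 (2.41, edgeR adjusted p = 0.0551). Its log2 fold change of 2.24 was 1.74 without WT replicate 2 and 3.14 without WT replicate 3. Astrocytes also make Clu, and of 7 tested astrocyte markers 4 were called higher and 1 lower. Within each genotype Clu had the library order of Gfap, which Aldh1l1, S100b and Slc1a2, also called higher, did not keep in both genotypes. The part of such cells in the Clu values was not tested. Cr1l, for Crry, the membrane inhibitor of C3 cleavage in mice, was not called (55.9 ± 9.84 and 45.4 ± 5.0 CPM, edgeR adjusted p = 0.479), nor was Vtn, for vitronectin.

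Among receptors and binding partners, Itgam, for the alpha chain of CR3, fell from 70.5, 87.3 and 50.5 CPM to 11.5, 18.5 and 10.3 CPM. All IRF8KO libraries were below all WT libraries, with a log2 fold change of −2.36 (SE 0.35; edgeR adjusted p = 7.3e-04). Its exons share 68.7% of their length with Gm49368, so these counts come from the remainder. Itgb2, for the shared beta chain, was not called (1006 ± 255 and 935 ± 141 CPM, edgeR adjusted p = 0.846; under library size alone it was called lower, at −0.59), nor was Itgax, for the alpha chain of the related receptor CR4 (6.86 ± 4.02 and 9.06 ± 0.682 CPM, edgeR adjusted p = 0.624). Lrp1, a large endocytic receptor, rose from 440 ± 23.6 to 822 ± 73.9 CPM (SD, n = 3, edgeR adjusted p = 0.0417), a call that was lost in 9 of 18 alternatives, 5 of them fits without 1 library. C1qbp, Calr and C8g were not called either (edgeR adjusted p of 0.299, 0.643 and 0.708), though C1qbp was called higher without WT replicate 3 (log2 fold change 0.80, edgeR adjusted p = 0.0266). On simulated libraries of the same design, with 200 genes changed and 10447 tested, 33 of 47 genes raised by a log2 of 2 were called. Of 49 genes raised by a log2 of 1, 2 were called. In the data 2109 of 11041 genes were called, a larger share than was changed in the simulation. The adjusted threshold depends on that share, so these rates are not the recovery in the data.

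**Figure D3:**
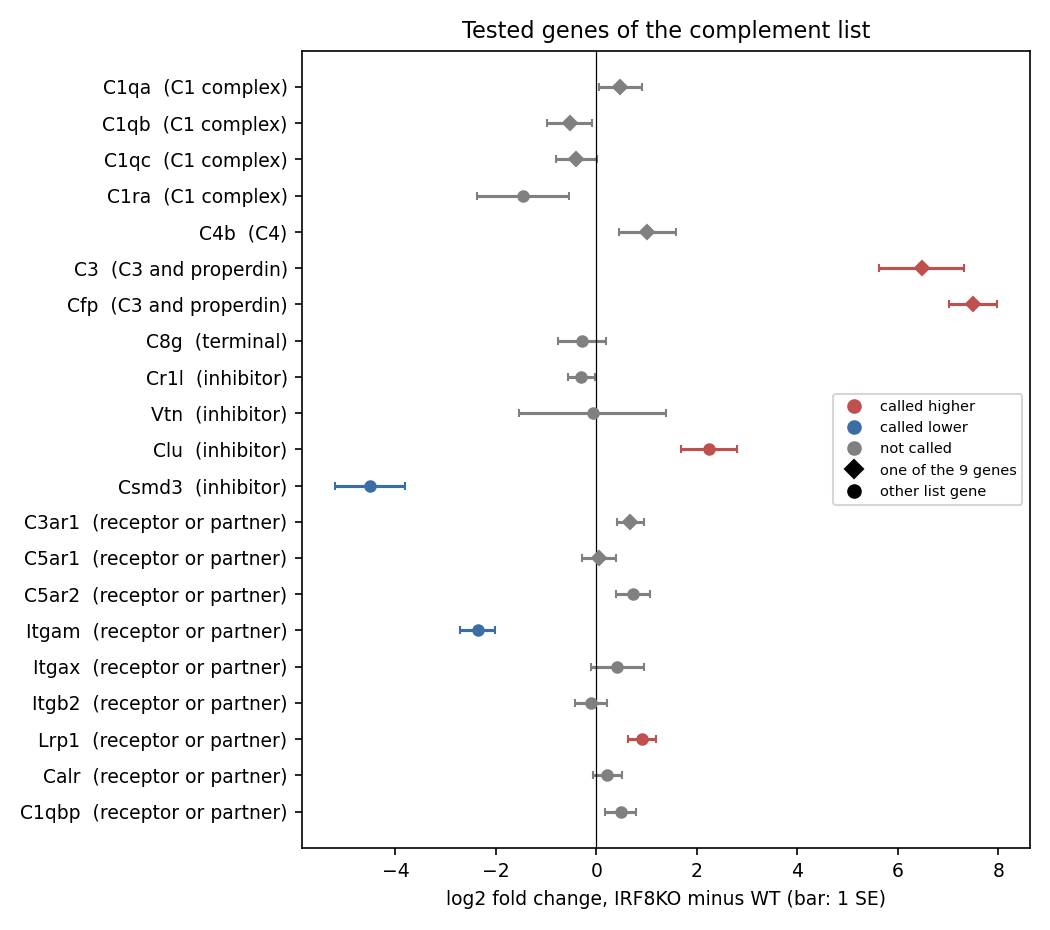
Log2 fold change (IRF8KO minus WT) with 1 SE for tested genes of the complement list, ordered by role, in which diamonds are members and colours give the edgeR call. C3 and Cfp lie far to the right at 6.47 and 7.49, Csmd3 and Itgam to the left, and the C1q genes near 0.

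Genes with the most similar profile were found by the root-mean-square difference of centred log2 CPM over the 6 libraries. For C1qa these were Yif1b, Psmb3 and Pdlim2, at 0.0226, 0.049 and 0.0496, whereas its neighbours C1qc and C1qb came 2278 and 2614 of 11040. For C3 they were Ecm1, Cck and Ly6i, at 0.395, 0.61 and 0.791, and Cfp came 29. For C3ar1 they were Ssh1, Atp1b3 and Stard8, at 0.0404, 0.0503 and 0.0586. For C5ar1 they were Gfer, Afap1l1 and Dmap1, at 0.081, 0.0893 and 0.092, and C1qc came 846. Mean CPM of Ecm1 was 1.72 ± 2.05 in WT, against 171 ± 44.2 in IRF8KO (SD, n = 3), close to the values of C3. These are descriptions over 6 libraries in 2 groups, with no test.

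**Figure D4:**
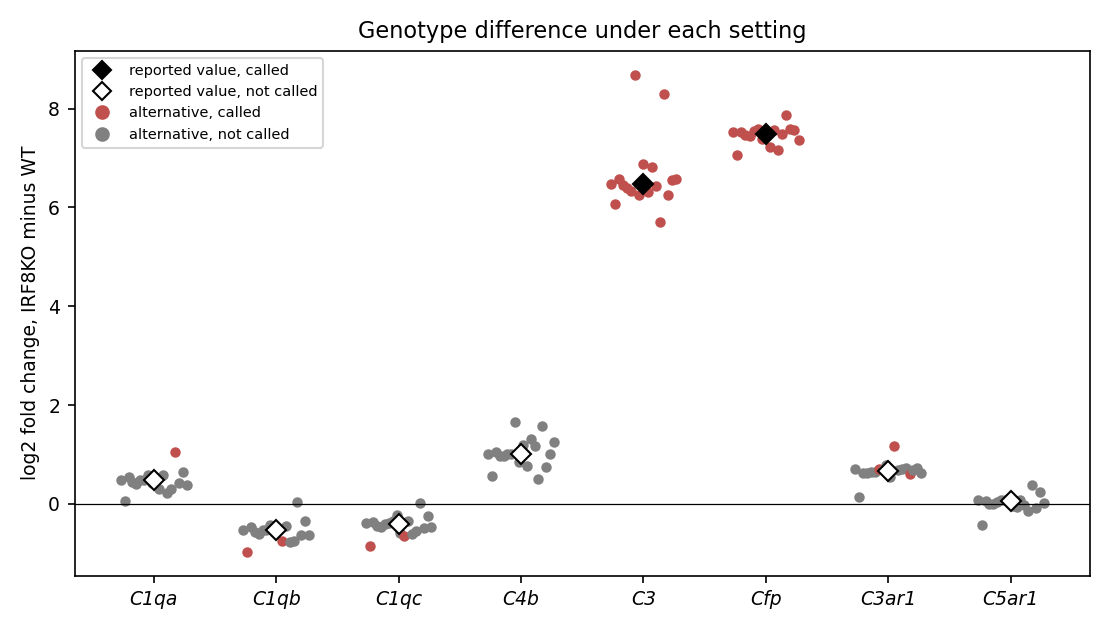
Log2 fold change (IRF8KO minus WT) of the 8 tested members as reported (diamonds, filled where called) and under each of up to 18 alternatives (circles, red where called). C3 and Cfp are called in all of those that tested them, C4b and C5ar1 in none, and the C1q genes and C3ar1 in 1 to 3.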

How the data were processed

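Per the labels' protocols, cDNA of sorted microglia was made with the SMART-Seq v4 kit and tagged with Nextera XT, so the libraries carry neither strand nor molecular identifiers, and intervals cover counting error only. The deposited values are raw counts per gene of uniquely mapped reads in STAR's layout, made by the authors. Per the submitters' processing notes, bcl2fastq, STAR 2.5.2b, Picard 2.17.11, Subread, featureCounts and build mm10 were used, with no role stated. The annotation release is not given in the sources used here. The unstranded column was used. The 4 summary lines were left out: reads on several genes were 8.2% to 10.8% of uniquely mapped reads. Of 49585 identifiers, 49326 matched GENCODE M21 (GRCm38), which gave symbols, positions, exon lengths and GC content.

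Tests used edgeR 4.0.16 under R 4.3.3 on the counts (filter at a minimum count of 10, TMM, quasi-likelihood F test, genotype as the term, Benjamini-Hochberg over all tested genes, threshold 0.05), a procedure tested on simulated data. Standard errors were derived from the F statistic. Ratios used counts per kb with a pseudocount of 0.5 and an exact permutation test. Alternatives were DESeq2 1.42.0, limma-voom (limma 3.58.1), other scalings and filters, each strand column, a GC offset, a replicate block and leaving out each library. Every library came from its own sample per the labels, and nothing says more on batches. Genes named were the 9 members, Irf8, tested genes of the complement list, coding neighbours, the 3 most similar genes of 4 members and leading markers, with others named where a count of theirs is given. Results of some list genes are not reported here, though counts over a list include them. Members and lists were chosen with earlier results of these data known.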

Additional observations from a re-analysis of the deposited data

How the results depend on the processing

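C3 and Cfp kept their direction and call in all 17 alternatives that tested them (at least 10 counts in every library removed both, leaving 2 list genes called higher), with log2 fold changes of 5.70 to 8.69 and 7.05 to 7.87. C4b stayed uncalled in 18, at 0.51 to 1.67. Over all genes 2109 were called, 910 to 4003 when 1 library was left out: leaving out IRF8KO replicate 3 gave 910, IRF8KO replicate 1 1147, WT replicate 2 1171, WT replicate 1 1308 and WT replicate 3 4003. Scaling by library size alone lowered the share of higher calls from 50.5% to 25.4%, called C1qb and C1qc lower (−0.97 and −0.86), called 6 list genes lower in place of 3 (5 with the GC offset), and turned C5ar1 (−0.43), Calr (−0.33) and Itgax (−0.0006). The GC offset called C1qb (−0.74), C1qc (−0.64) and C3ar1 (1.17), and turned C5ar1 (−0.054) and Cr1l (0.44). The DESeq2 Wald test called C3ar1 (0.71). C5ar1 also turned without a filter (−0.0020) and with the second strand column (−0.043), Calr with the first (−0.022), and Vtn with limma-voom (2.69). Without 1 library, the ranges were 0.22 to 1.04 for C1qa, −0.76 to 0.030 for C1qb, −0.61 to 0.0135 for C1qc, 0.61 to 0.73 for C3ar1, −0.14 to 0.39 for C5ar1 −0.73 to 6.68 for Vtn and −0.23 to 0.15 for Itgb2. The causes were not tested. The ratio of C1qb to C1qa lay between −1.08 and −0.96, and that of C1qc to C1qa ran from −0.69 with the first strand column to −1.17 with the second. Cfp to C3 ran from −1.45 to 2.0 when 1 library was left out.

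Same-numbered libraries did not deviate together in all pairs (correlations of −0.260, 0.328 and 0.114), and the labels tie them only by number. With deviations centred within groups of 3 libraries, these correlations cannot exclude a shared batch. The replicate block moved the count of calls from 2109 to 2353, called the same members, moved C4b to 1.32 and turned Vtn (2.20). WT replicate 1 correlated best with IRF8KO replicate 2 (0.349). Depth limits the WT levels of C3 and Cfp. Cfb and C2 are limited by depth and also by the exon length they share with other genes.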
